A study of Mus musculus with 12 samples.

Results

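The loss of *Snap29* was followed at day 14 of differentiation, in mouse embryonic stem cells (ESCs) of the J1 line, which comes from the strain 129S4/SvJae. RNA-seq libraries of knockout (KO) cells, replicates 1 to 3, were set against libraries of wild-type (WT) cells, replicates 1 to 3, and these are 6 of the 12 libraries in the series. Both groups had spent 3 days as hanging drops without LIF, the cytokine that keeps mouse ESCs undifferentiated, and then 11 days attached to plates, with many embryoid bodies pooled in a well. They were taken apart to single cells with trypsin, and poly(A) RNA was sequenced. A gene entered the comparison when it had at least 1 FPKM (fragments per kilobase of gene, scaled to the size of the library) in at least 3 of the 6 libraries, which held for 13036 of the 55471 genes listed. WT and KO differ by CRISPR/Cas9 cutting with a guide to exon 2 of *Snap29*. The study selected 1 KO clone for its transcriptomes and did not name the clone used at day 14, so the spread between clones was not measured. The study calls the 3 libraries of a group biological replicates. Whether they came from separate cultures is not stated, and if they did not, the spread behind the p values is that of sequenced libraries and not of cultures.

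SNAP29 is a SNARE protein, one of the coiled proteins that pull 2 membranes together until they fuse, and it is best known for joining autophagosomes to lysosomes. When ESCs are grown as embryoid bodies they form derivatives of the germ layers, among them beating muscle, epithelium and vessels, and some cells take on a trophoblast programme. Trophoblast giant cells and spongiotrophoblast of the mouse placenta are known for secreting prolactin-like hormones, cathepsins and serpins from gene families that expanded in rodents.

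Each day 14 library held 16638790 to 19226488 assigned fragments, and all 3 WT and all 3 KO libraries are compared below as log2(FPKM + 0.1), with limma and Benjamini-Hochberg adjustment over the 13036 genes. A gene passed at an adjusted p under 0.05, and a differentially expressed gene (DEG) also changed at least 2-fold. WT replicate 3 stood apart: its correlation over genes was 0.954 and 0.940 with the other WT libraries and 0.953, 0.953 and 0.941 with the KO libraries. On the first principal component, which held 53.4% of the variance, its score was -3.56, the other WT libraries scored -35.6 and -50.2, and scores in KO were 19.2 to 41.0. Results that rest on this library are therefore given with and without it. It was picked out on these same values as the WT library nearest to KO. Adjusted p values without it are therefore likely too small and serve as description. In bulk RNA, fewer cells of a type and less RNA per cell cannot be told apart.

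The targeted gene was low in every KO library. *Snap29* stood at 9.22, 9.88 and 8.09 FPKM in the WT libraries and at 2.31, 1.87 and 1.88 FPKM in the KO libraries. The groups did not overlap, and KO held 22.3% of the mean WT level (log2 change -2.11 ± 0.13 SE, adjusted p = 0.00386). With 3 libraries against 3, the exact two-sided permutation test gave p = 0.1, the smallest it can give. *Atrx*, an X-linked gene for a chromatin remodeller, was at 12.6, 12.6 and 6.24 FPKM in WT against 0.0874, 0.146 and 0.0888 in KO (log2 change -5.62, adjusted p = 0.00298). KO cells thus lacked nearly all *Atrx* RNA as well, at 1.02% of the WT mean, and no difference below can be assigned to *Snap29* alone.

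Of the relatives of *Snap29*, *Snap23*, which serves exocytosis in many cell types, was at 10.4, 9.99 and 10.7 FPKM in WT against 10.7, 11.1 and 11.4 in KO (log2 change 0.09, adjusted p = 0.534). Its small positive value turned to -0.05 when FPKM was rescaled to TPM. *Snap47* was at 45.7, 40.0 and 70.4 FPKM in WT against 77.1, 67.1 and 56.1 in KO (log2 change 0.39, adjusted p = 0.328), with WT replicate 3 inside the KO range. Without that library its adjusted p was 0.0292. *Snap29* was the only member of a list of 23 tested SNARE genes that passed in either direction. None of the 6 tested neighbours of *Snap29* on chromosome 16 passed, against 2.61% of all genes higher and 1.33% lower at this threshold. *Pi4ka*, a lipid kinase gene whose locus overlaps exon 1 of *Snap29*, was at 4.41, 4.14 and 2.95 FPKM in WT against 2.37, 2.45 and 3.19 in KO, and its groups overlapped (adjusted p = 0.192). In the fit without WT replicate 3, *Pi4ka* was lower and 2 neighbours, *Lztr1* and *Thap7*, were higher at this threshold.

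Among the 13036 genes, 123 DEGs were higher in KO (0.944%) and 113 were lower (0.867%). The falls were mostly of protein-coding genes (103 of 113), whereas 84 of the 123 rises were. Of the DEGs, 33 rises and 44 falls reached 1 FPKM in exactly 3 libraries, the fewest the filter allows. A gene that reached it only in the group where it is high had to differ, so these counts do not measure how often genes change. Of all tested genes, 557 reached 1 FPKM in exactly 3 libraries, and 622 genes that did so in exactly 2 were left out.

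The counts depended on single libraries. Without WT replicate 3 there were 392 DEGs higher (3.01%) and 306 lower (2.35%), and these included 116 of the 123 rises and 111 of the 113 falls. Without any other library fewer DEGs were found: leaving out WT replicate 1 gave 50 higher and 29 lower, WT replicate 2 gave 58 and 52, KO replicate 1 gave 11 and 26, KO replicate 2 gave 11 and 25, and KO replicate 3 gave 36 and 51. In 217 of the 392 rises and 152 of the 306 falls found without WT replicate 3, that library lay nearer the KO mean than the mean of the other WT libraries. Rises outnumbered falls at the adjusted p alone, by 340 to 174, but with TPM scaling there were 159 rises and 256 falls. That scaling moved the median log2 change of all genes from 0.05 to -0.09, a shift of -0.14.

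**Figure D1:**
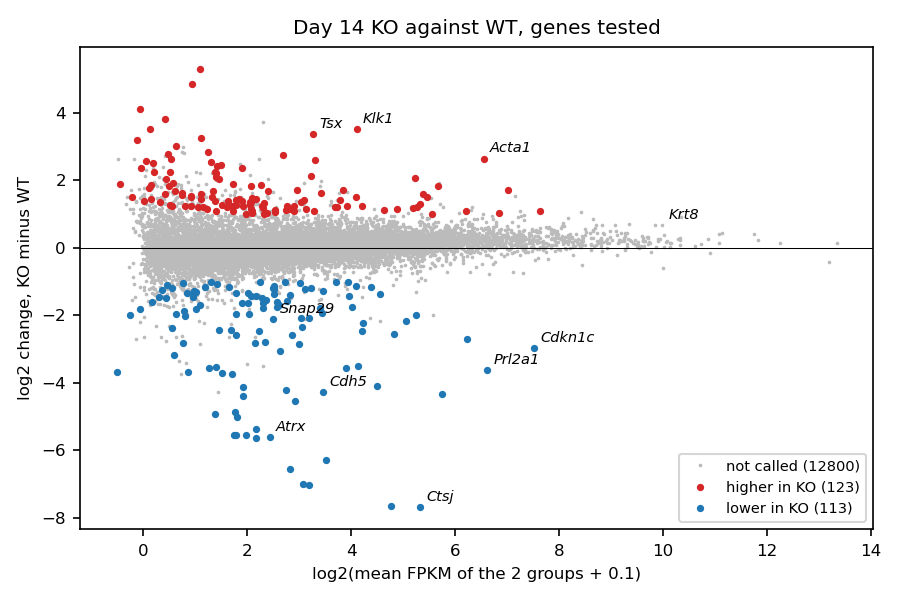
Each point is 1 of the 13036 genes tested at day 14, with log2 of its mean FPKM over both groups plus 0.1 on the x axis and its log2 change, KO less WT, on the y axis. The 123 DEGs higher in KO are red and the 113 lower are blue, and falls such as *Ctsj* (-7.69) reach further from 0 than the rises of named genes, such as *Klk1* (3.52).

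A set of 28 genes kept an adjusted p under 0.05 whichever of the 6 libraries was left out. Of these, 20 were lower in KO: *Snap29*, *Atrx*, 9 prolactin genes, the placental cathepsins *Ctsj* and *Ctsq*, the trophoblast gene *Tpbpa*, the imprinted genes *Cdkn1c*, *Phlda2* and *Slc22a18*, and *Hsd11b2*, *Clip2* and *Tnfaip2*. The other 8 were higher: *Eif2s3x*, *Fetub*, *Rhox13*, *Mpv17l*, *Stk31*, *Tsx* and 2 unnamed gene models. Of the falls, *Atrx*, *Ctsj*, *Ctsq*, *Tpbpa*, *Slc22a18*, *Prl7d1*, *Prl2b1*, *Prl6a1* and *Prl4a1* reached 1 FPKM in the WT libraries alone. They had to differ to be tested. With the replicate number as a block in the fit, 14 of the 28 passed. Those of this set that belong to no gene list were picked out after their values were seen. *Hsd11b2*, whose enzyme inactivates glucocorticoids and is abundant in placenta, was at 11.3, 11.8 and 9.63 FPKM in WT against 1.73, 1.17 and 0.875 in KO (log2 change -3.06, adjusted p = 0.00459). *Tnfaip2*, an endothelial and myeloid gene, was at 23.1, 20.0 and 24.5 FPKM in WT against 8.10, 8.34 and 8.63 in KO (log2 change -1.42, adjusted p = 0.00459). *Clip2*, which encodes a microtubule-binding protein, was at 6.86, 7.38 and 6.81 FPKM in WT against 2.64, 2.09 and 2.65 in KO (log2 change -1.48, adjusted p = 0.00534). In these 3 genes the lowest WT library was above the highest KO library.

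The prolactin family had the lowest median of the 40 gene lists. Of 25 listed members, 14 were expressed highly enough to be tested, and 12 of these fell in KO while none rose, against 1.33% of all genes lower at this threshold. The median log2 change of the 14 was -4.21, beside 0.05 over all genes. However, 6 of the 12 reached 1 FPKM in the 3 WT libraries alone and could enter only by being high there, so they had to differ. Of the other 8 tested members 6 fell, with a median log2 change of -3.54. Without WT replicate 3 the same count of 12 fell, and leaving out any other single library gave 9 to 11. In 13 of the 14 all KO libraries were below all WT libraries, as was true of 11% of all genes. The 6 that reached 1 FPKM in the WT libraries alone had to be among these 13. The listed members lie in a stretch of chromosome 13 (22 genes, 27094190 to 28151611) and in a second stretch nearer the start of the chromosome (3 genes, 12790816 to 13191923; mm10).

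The sequences just upstream of 4 of these genes are shown because the family members fell together. They are the 250 bases before the annotated start on the gene's strand, from RefSeq on GRCm38.p6, the assembly also called mm10. Capitals mark AGATAA or its reverse complement, a form of the GATA motif, searched on both strands. GATA2 and GATA3 are known regulators of placental lactogen genes in trophoblast giant cells.
Prl7d1, chr13:27716738-27716987, minus strand: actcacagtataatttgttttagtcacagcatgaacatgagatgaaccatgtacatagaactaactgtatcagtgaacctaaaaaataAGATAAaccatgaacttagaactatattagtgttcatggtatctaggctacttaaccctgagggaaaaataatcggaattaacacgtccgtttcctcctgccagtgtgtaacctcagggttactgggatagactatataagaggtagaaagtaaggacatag
Prl2b1, chr13:27390847-27391096, minus strand: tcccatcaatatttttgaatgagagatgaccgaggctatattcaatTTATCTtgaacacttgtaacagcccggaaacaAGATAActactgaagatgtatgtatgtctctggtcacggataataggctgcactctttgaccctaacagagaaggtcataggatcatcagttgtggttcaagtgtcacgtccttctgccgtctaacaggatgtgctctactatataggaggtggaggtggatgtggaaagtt
Prl6a1, chr13:27312365-27312614, plus strand: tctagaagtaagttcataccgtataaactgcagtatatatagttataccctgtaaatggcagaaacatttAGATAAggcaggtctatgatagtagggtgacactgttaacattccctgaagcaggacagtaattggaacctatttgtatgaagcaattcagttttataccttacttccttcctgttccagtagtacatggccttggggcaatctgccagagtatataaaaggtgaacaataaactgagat
Prl2a1, chr13:27801405-27801654, plus strand: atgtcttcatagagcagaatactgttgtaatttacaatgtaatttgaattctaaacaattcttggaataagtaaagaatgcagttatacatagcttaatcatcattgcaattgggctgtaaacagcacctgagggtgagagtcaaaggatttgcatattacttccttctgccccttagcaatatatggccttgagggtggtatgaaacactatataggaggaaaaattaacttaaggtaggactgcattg
The motif lies 157 bases before the start in *Prl7d1*, 167 and 199 bases before it in *Prl2b1* and 175 bases before it in *Prl6a1*, and *Prl2a1* has none in this window. Of 27025 promoters of the same length, 2771 (10.3%) hold the motif. Of the lowered prolactins, 7 of the 10 with an upstream sequence in the RefSeq table hold it, and of the 21 listed prolactins with one, 8 do. A match of letters is a description and was not tested as a binding site.

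Several prolactins were close to absent in KO. *Prl7d1*, a trophoblast hormone also called proliferin-related protein, was at 46.3, 90.9 and 23.9 FPKM in WT against 0.0543, 0.0675 and 0.383 in KO (log2 change -7.65 ± 0.60 SE, adjusted p = 0.00459). *Prl2b1* was at 10.9, 33.2 and 5.79 FPKM in WT and had no fragment in any KO library, and taking 3 fragments per library as the floor it was at least 95.0-fold lower. *Prl6a1* was at 13.4, 23.7 and 4.66 FPKM in WT and rested on 2 fragments in KO replicate 2 alone, a ratio of 471.5 with an exact 95% interval of 130.2 to 3899 that covers counting error only. In all 3 genes WT replicate 3 was the lowest WT library and still lay far above every KO library.

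Other prolactins kept a low level. *Prl2a1* had the highest level of the family in both groups, at 214, 141 and 188 FPKM in WT against 15.8, 17.8 and 10.4 in KO (log2 change -3.63 ± 0.23 SE, adjusted p = 0.00386). *Prl2c5* was at 85.4, 167 and 54.9 FPKM in WT against 4.10, 3.69 and 6.02 in KO (log2 change -4.33, adjusted p = 0.00637). *Prl7a1* was at 6.50, 10.2 and 9.42 FPKM in WT against 1.11, 1.48 and 0.894 in KO (log2 change -2.80, adjusted p = 0.00494). No KO library of these 3 genes reached any WT library. *Prl3d1*, placental lactogen I, the early hormone of giant cells, was at 28.9, 29.02 and 38.4 FPKM in WT against 2.06, 2.22 and 4.35 in KO (log2 change -3.50, adjusted p = 0.00494). *Prl3b1*, placental lactogen II, which follows it later in pregnancy, was at 6.66, 31.5 and 4.98 FPKM in WT against 0.0482, 0.575 and 0.755 in KO (log2 change -4.54, adjusted p = 0.0437). The call of *Prl3b1* was lost without any library but WT replicate 3, and its WT libraries differed widely among themselves.

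Of the other members that fell, *Prl4a1* (4.05, 5.35 and 5.37 FPKM in WT, at most 0.175 FPKM in KO) and *Prl2c3* (log2 change -4.09) are in the set of 28 genes. *Prl7b1* (log2 change -5.64) rested on 2 KO fragments and, like *Prl2c2* (log2 change -3.57), lost its call without WT replicate 1, KO replicate 1 or KO replicate 2. The values of *Prl2c2*, *Prl2c3* and *Prl2c5*, which encode proliferins, and of *Prl3d1*, *Prl3d2* and *Prl3d3* are uncertain gene by gene, because these copies are nearly identical and fragments could be divided among them. Of the 2 tested members that missed the threshold, *Prl3d2* was at 2.17, 2.07 and 2.81 FPKM in WT against 1.02, 0.418 and 1.38 in KO (adjusted p = 0.113), with no overlap, and *Prl3d3* had overlapping groups. The 11 members that were not tested were at or near 0 in KO as well. *Prl8a9*, the highest of them in a single WT library, reached 3.15 FPKM in WT replicate 2 but 0.348 and 0.213 FPKM in the other WT libraries. With the filter lowered to 0.1 FPKM, 17 members were tested and 13 fell, beside 0.883% of 20506 genes. Some of these, such as *Prl2c1* and *Prl5a1*, stayed under 0.1 FPKM in all KO libraries and so had to differ to be tested.

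**Figure D2:**
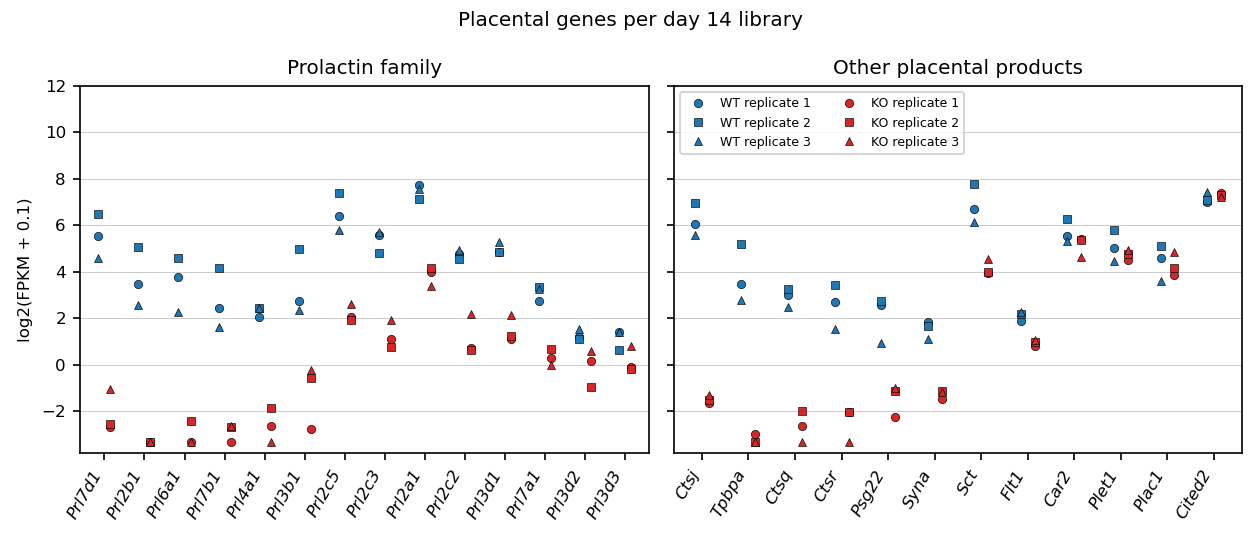
Level of the 14 tested prolactins (left) and the 12 other tested placental products (right) in each day 14 library, as log2(FPKM + 0.1) on the y axis, with WT in blue, KO in red and a symbol for each replicate. The WT libraries of *Ctsj* lie between 47.9 and 123 FPKM and its KO libraries between 0.216 and 0.301 FPKM.

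Other placental products fell with the hormones. Of 29 listed genes 12 were tested, 8 fell and none rose, beside 1.33% lower and 2.61% higher of all genes, with a median log2 change of -2.75. Of the 8, 6 (*Ctsj*, *Ctsq*, *Ctsr*, *Tpbpa*, *Psg22* and *Syna*) reached 1 FPKM in the WT libraries alone and so had to differ. Of the other 6 tested genes 2 fell, with a median log2 change of -0.48. The count of falls was 8 without WT replicate 3, when 1 gene also rose, 4 without WT replicate 1, KO replicate 1 or KO replicate 2, 5 without KO replicate 3 and 6 without WT replicate 2. *Ctsj*, a cathepsin made in placenta, was at 66.5, 123 and 47.9 FPKM in WT against 0.216, 0.251 and 0.301 in KO (log2 change -7.69 ± 0.33 SE, adjusted p = 0.000600). *Ctsq*, a cathepsin of giant cells, was at 7.82, 9.40 and 5.52 FPKM in WT against 0.0616, 0.153 and 0 in KO (log2 change -5.55, adjusted p = 0.00459). *Tpbpa*, the classical marker of spongiotrophoblast and its precursors, was at 11.0, 36.5 and 6.78 FPKM in WT and had 1 fragment in the KO libraries together, a ratio of 2286 (exact 95% interval 409.8 to 9.031e+04, counting error only). In each of the 3 genes the highest KO library was below the lowest WT library, and the WT libraries of *Tpbpa* differed most among themselves. With voom on fragment counts read back from FPKM, *Tpbpa*, *Prl2b1* and *Prl6a1* missed the threshold (adjusted p = 0.0876, 0.0691 and 0.0771).

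*Syna*, the syncytin that fuses cells of the syncytiotrophoblast, was at 3.50, 3.04 and 2.07 FPKM in WT against 0.254, 0.353 and 0.344 in KO (log2 change -2.81, adjusted p = 0.00747), a call lost only without WT replicate 1. *Sct*, the secretin gene, was at 103, 217 and 70.9 FPKM in WT against 15.5, 15.8 and 23.6 in KO (log2 change -2.70, adjusted p = 0.0235). *Flt1*, the VEGF receptor that placenta also releases in soluble form, was at 3.603, 4.44 and 4.66 FPKM in WT against 1.62, 1.87 and 1.98 in KO (log2 change -1.17, adjusted p = 0.0168). *Sct* kept its call without WT replicate 2 or 3, and *Flt1* without WT replicate 1 or 3. The 4 tested products that did not pass, *Car2*, *Plet1*, *Plac1* and *Cited2*, had overlapping groups, and *Plac1*, a placental membrane gene, was at 12.1 to 34.3 FPKM in WT against 14.5 to 28.9 in KO. *Ceacam15*, *Ceacam9* and *Psg29*, of a family of placental cell surface and secreted glycoproteins, were also among the largest falls, at log2 changes of -6.30, -4.40 and -5.56. *Ceacam15* lost its call without KO replicate 1 or 2, *Psg29* without those or WT replicate 1, and *Ceacam9* without any library but WT replicate 3.

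Chromosome 13 held 23 of the 113 lower DEGs, 4.39% of its 524 tested genes beside 0.867% of all. Of these 23, 9 and 3 lie in the prolactin stretches, so the share counts again genes described above. The stretch with the placental cathepsins, *Tpbpa* and *Tpbpb* (60901188 to 61570127) gave 4 falls among 5 tested genes. A further group there, chosen after its values were seen, was that of *Serpinb9*-related protease inhibitors, from *Serpinb9* (start 33003250) to *Serpinb9g* (end 33496004). *Serpinb9e* was at 49.1, 77.9 and 36.3 FPKM in WT against 10.8, 12.6 and 10.7 in KO (log2 change -2.18, adjusted p = 0.0131). *Serpinb9c*, *Serpinb9d*, *Serpinb9f* and *Serpinb9g* fell as well, by log2 changes of -1.95, -1.60, -2.07 and -2.85. *Serpinb9* itself (log2 change 0.14, adjusted p = 0.443) and *Serpinb9b* (log2 change 0.39, adjusted p = 0.160), which lie beside them, did not pass. The serpins named here kept their calls without WT replicate 2 or 3. Each lost its call without KO replicate 2, *Serpinb9d* without that library alone.

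The median log2 change of 15 tested transcription factors of trophoblast was -0.13. Of these, 1 factor fell and none rose, beside 1.33% lower and 2.61% higher of all genes. That factor was *Gata3*, at 7.38, 8.01 and 7.85 FPKM in WT against 4.09, 4.36 and 4.07 in KO (log2 change -0.88, adjusted p = 0.00932). *Cdx2*, the regulator of early trophectoderm, was at 1.86, 2.47 and 1.06 FPKM in WT against 0.614, 0.745 and 0.404 in KO (log2 change -1.42, adjusted p = 0.0870). *Ascl2*, needed for spongiotrophoblast, was at 6.39, 12.1 and 4.90 FPKM in WT against 1.61, 3.24 and 2.51 in KO (log2 change -1.57, adjusted p = 0.0700). The groups did not overlap in any of the 3, and all KO libraries were below all WT libraries in 11% of all genes. *Cdx2* reached 1 FPKM in the WT libraries alone, so it had to differ to be tested. *Gata3* lost its call without KO replicate 1 or 2. Without WT replicate 3, 7 of the 15 fell and 1 rose, beside 8.27% and 16.1% of all genes, and *Cdx2* and *Ascl2* were among the falls (adjusted p = 0.0177 and 0.0192).

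Imprinted genes, which are expressed from 1 parental copy and many of which act on growth of the placenta, gave 3 falls and no rise among 25 tested, beside 1.33% lower and 2.61% higher of all genes, and a median log2 change of -0.50. All 3 lie side by side on distal chromosome 7, and the count was 3 whichever KO library, WT replicate 1 or WT replicate 2 was left out. *Cdkn1c*, which encodes the cell cycle inhibitor p57 and lies at 143458339 to 143461050, was at 323, 348 and 307 FPKM in WT against 41.6, 37.8 and 45.4 in KO. KO held 12.8% of the mean WT level (log2 change -2.97 ± 0.10 SE, adjusted p = 0.000216), and its highest adjusted p with a library left out was 0.00673. *Slc22a18*, a transporter gene, was at 3.95, 5.15 and 4.51 FPKM in WT against 0.968, 0.631 and 0.695 in KO (log2 change -2.43, adjusted p = 0.00494), and it reached 1 FPKM in the WT libraries alone, so that it had to differ. *Phlda2*, known as a brake on placental growth, was at 51.1, 56.7 and 37.1 FPKM in WT against 8.66, 9.88 and 5.84 in KO (log2 change -2.57, adjusted p = 0.00637). These 3 are maternally expressed genes of the domain whose imprinting centre lies in *Kcnq1*. Its noncoding transcript, *Kcnq1ot1*, was at 0.0478 to 0.101 FPKM and was not tested.

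In a window of 500 kb to either side of *Cdkn1c*, chosen after its values were seen, no other gene passed with 6 libraries. *Nap1l4*, which starts 55.2 kb from *Cdkn1c* and next to *Phlda2*, was at 52.8, 54.7 and 46.2 FPKM in WT against 48.7, 49.2 and 52.2 in KO (log2 change -0.03, adjusted p = 0.863). *Cars*, at 98.9 kb, had a log2 change of 0.44 (adjusted p = 0.0632), and *Cd81*, at -405.6 kb, one of 0.46 (adjusted p = 0.111). *Nap1l4* had overlapping groups, whereas the KO libraries of *Cars* and *Cd81* were above the WT libraries. In the fit lacking WT replicate 3, *Cars* and *Cd81* were higher (adjusted p = 0.0150 and 0.0136) and *Ascl2* and the sterol reductase gene *Dhcr7* lower (adjusted p = 0.0192 and 0.0175).

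**Figure D3:**
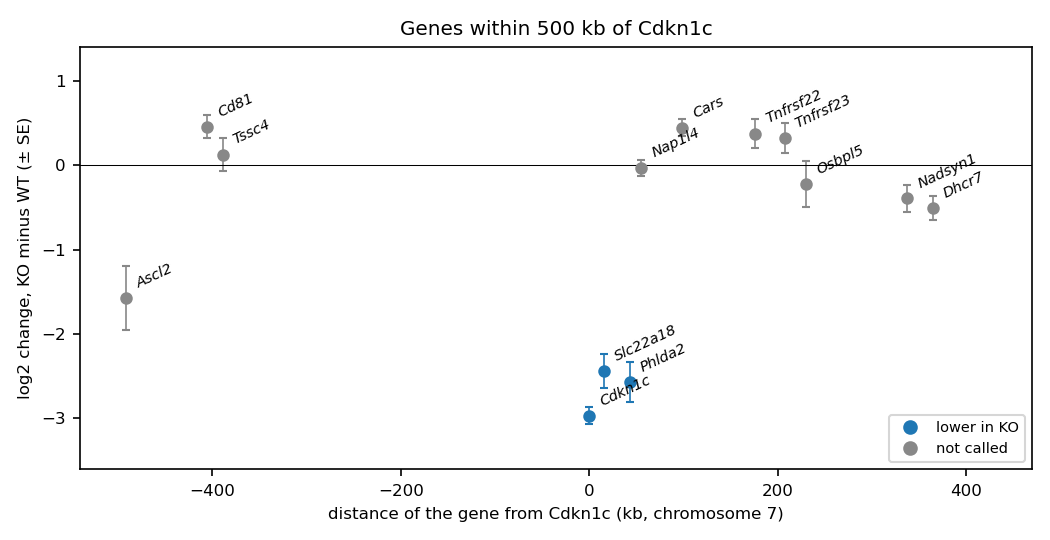
Log2 change, KO less WT at day 14, of the genes tested within 500 kb of *Cdkn1c* on mouse chromosome 7, against their distance from *Cdkn1c* in kb, with bars of 1 SE. *Cdkn1c*, *Slc22a18* and *Phlda2* lie between -2.97 and -2.43, *Ascl2* lies at -1.57, and the others lie between -0.51 and 0.46.

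Without WT replicate 3, 13 of the 25 imprinted genes fell and none rose, beside 8.27% and 16.1% of all genes. *Nnat*, a neuronal and pancreatic proteolipid gene, was at 25.8, 51.4 and 14.3 FPKM in WT against 5.20, 3.88 and 8.63 in KO (adjusted p = 0.0584 with 6 libraries and 0.0108 without that one). *Igf2*, the fetal growth factor, was at 24.1, 24.6 and 14.5 FPKM in WT against 6.82, 8.19 and 11.8 in KO (adjusted p = 0.0600 and 0.0108). *Plagl1*, a zinc finger gene of the same growth network, was at 18.9, 20.7 and 8.63 FPKM in WT against 4.28, 4.82 and 6.51 in KO (adjusted p = 0.0620 and 0.00380). In each, WT replicate 3 was the WT library nearest to the KO libraries, without reaching them. *Peg10*, a retrotransposon-derived gene needed for placenta, was the most abundant of the list, at 441, 465 and 312 FPKM in WT against 252, 311 and 288 in KO (log2 change -0.50, adjusted p = 0.143).

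The largest rises among annotated genes were of different kinds. *Klk1*, tissue kallikrein, was at 3.04, 1.24 and 4.55 FPKM in WT against 37.1, 30.4 and 26.1 in KO (log2 change 3.52 ± 0.43 SE, adjusted p = 0.0136), a call lost without WT replicate 1, KO replicate 1 or KO replicate 2. *Tsx*, a testis-expressed gene of the X-inactivation centre, was at 2.29, 1.00 and 1.73 FPKM in WT against 16.8, 20.0 and 15.4 in KO (log2 change 3.37 ± 0.28 SE, adjusted p = 0.00494). *Stk31*, a germ cell kinase gene, was at 3.44, 2.87 and 1.93 FPKM in WT against 14.2, 15.6 and 20.9 in KO (log2 change 2.59, adjusted p = 0.00637). No KO library of these 3 genes was as low as any WT library, and *Tsx* and *Stk31* kept their calls with each library left out.

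*Gpx2*, a glutathione peroxidase of gut epithelium, was at 0.830, 0.534 and 0.497 FPKM in WT against 4.32, 3.30 and 4.66 in KO (log2 change 2.56, adjusted p = 0.00659, lost without KO replicate 1). *Il23a*, a cytokine subunit, was at 0.899, 0.936 and 1.09 FPKM in WT against 3.66, 4.11 and 5.23 in KO (log2 change 2.03, adjusted p = 0.00609, lost without KO replicate 2). Genes of the cornified epithelium stood beside them. *Crct1*, of the cornified layer, was at 3.31, 2.48 and 4.30 FPKM in WT against 13.4, 13.3 and 18.4 in KO (log2 change 2.15, adjusted p = 0.00857). *Lce1f*, a late cornified envelope gene, was at 0.225, 0 and 0.0687 FPKM in WT against 1.83, 1.19 and 1.55 in KO (log2 change 3.18, adjusted p = 0.0341). None of these overlapped between groups, and all KO libraries were above all WT libraries in 18.3% of all genes. *Gpx2* and *Lce1f* reached 1 FPKM in the KO libraries alone, so they had to differ to be tested. *Crct1* lost its call without KO replicate 1 or 2 and *Lce1f* without any library but WT replicate 3. The further large rises were *Gdpd3*, *Trgc1*, *Serpina3m*, *Obox6* and *Ly6g6c*, with log2 changes of 1.92 to 2.64, and each lost its call without KO replicate 1 or 2. *Ighd3-1* also met the thresholds, but with 4 fragments in the 6 libraries together it is given no fold.

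The smaller rises that held with every library left out had little spread. *Eif2s3x*, an X-linked translation initiation gene, was at 32.1, 32.7 and 28.4 FPKM in WT against 62.7, 62.6 and 63.4 in KO (log2 change 1.02, adjusted p = 0.00510). *Rhox13*, a homeobox gene of the X-linked *Rhox* cluster, was at 19.9, 24.3 and 24.5 FPKM in WT against 66.6, 59.7 and 67.3 in KO (log2 change 1.496, adjusted p = 0.00459). *Mpv17l*, a peroxisomal and mitochondrial membrane protein gene, was at 3.92, 3.26 and 3.41 FPKM in WT against 10.4, 11.7 and 13.4 in KO (log2 change 1.71, adjusted p = 0.00459). The KO libraries of *Eif2s3x* were 62.6 FPKM or higher and its WT libraries 32.7 FPKM or lower. *Fetub*, a secreted protease inhibitor gene, rose from 3.85 to 4.06 FPKM in WT to 9.16 to 9.87 FPKM in KO (log2 change 1.24, adjusted p = 0.00459). On chromosome 16, which carries *Snap29*, 12 of 393 tested genes were higher DEGs, 3.05% beside 0.944% of all. This was the highest share of rises among the autosomes and the X chromosome. None of the 6 tested neighbours of *Snap29* was among the 12, and the cause was not tested.

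Epithelial genes stood higher in KO. Of 22 tested, 7 rose and none fell, beside 2.61% of all genes higher, and the median log2 change was 0.56. *Krt8* and *Krt18*, the paired keratins of simple epithelia, were the most abundant. *Krt8* was at 699, 780 and 870 FPKM in WT against 1291, 1179 and 1265 in KO (log2 change 0.67, adjusted p = 0.0222). *Krt18* was at 745, 825 and 1177 FPKM in WT against 1765, 1694 and 1583 in KO (log2 change 0.90, adjusted p = 0.0403). WT replicate 3 was the highest WT library of both, and no KO library was as low. *Cldn3*, a tight junction gene, was at 48.5, 54.0 and 52.7 FPKM in WT against 93.9, 87.4 and 101 in KO (log2 change 0.86, adjusted p = 0.00883). *Epcam*, an adhesion gene also high in ESCs, was at 74.4, 74.7 and 63.4 FPKM in WT against 130, 129 and 155 in KO (log2 change 0.96, adjusted p = 0.0125). *Cldn7*, *Spint1* and *Krt17* rose by log2 changes of 0.87, 0.62 and 1.25. *Krt5*, the keratin of basal cells, stood the other way, at 7.08, 16.2 and 3.35 FPKM in WT against 0.234, 0.302 and 1.93 in KO (log2 change -3.51, adjusted p = 0.0667). The count of 7 rose to 12 without WT replicate 3, when *Krt5* fell (adjusted p = 0.0211), and was 1 without WT replicate 1, 2 without WT replicate 2 or KO replicate 3, and 0 without KO replicate 1 or 2.

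Most tested genes of striated muscle stood higher in KO, but few passed. Of 64 listed, 32 were tested, and the sarcomere genes *Ttn*, *Neb*, *Myh1*, *Myh2*, *Myh6* and *Myh7* and the muscle creatine kinase gene *Ckm* were among those below the filter. The median log2 change was 0.74, with 26 changes above 0 and 6 below. All KO libraries were above all WT libraries in 15 of the 32 (18.3% of all genes). They were below all WT libraries in 2 (11% of all genes), *Myl3* and *Myh7b*. At the adjusted p, 2 rose and none fell. *Acta1*, skeletal muscle actin, was at 18.2, 16.1 and 53.2 FPKM in WT against 169, 145 and 159 in KO (log2 change 2.65 ± 0.43 SE, adjusted p = 0.0281). *Des*, the muscle intermediate filament desmin, was at 19.3, 18.7 and 27.7 FPKM in WT against 42.8, 38.1 and 45.0 in KO (log2 change 0.96, adjusted p = 0.0333). WT replicate 3 was the highest WT library of both genes and remained below every KO library. Without it 16 of the 32 rose, beside 16.1% of all genes, and none rose with any other library left out.

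The 250 bases upstream of *Acta1* are shown because this gene had the largest rise among the muscle genes tested. Capitals mark the CArG box, the known element bound by serum response factor in actin promoters, found 64 bases before the start.
Acta1, chr8:123894776-123895025, minus strand: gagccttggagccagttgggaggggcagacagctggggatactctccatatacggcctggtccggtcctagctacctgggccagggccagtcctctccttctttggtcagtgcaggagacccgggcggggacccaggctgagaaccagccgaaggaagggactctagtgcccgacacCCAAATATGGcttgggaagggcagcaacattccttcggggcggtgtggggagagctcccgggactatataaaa
A CArG box stands in 378 of the 27025 upstream sequences (1.4%), and a match is not evidence of binding.

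The regulators of muscle fate depended on WT replicate 3 in the same way. None of 13 tested myogenic regulators passed with 6 libraries, and 7 rose without WT replicate 3 (16.1% of all genes), with a median log2 change of 0.98 over the 6 libraries. *Myod1*, the founding myogenic factor, was at 0.264, 0.257 and 0.861 FPKM in WT against 2.37, 1.59 and 1.27 in KO (log2 change 1.84, adjusted p = 0.0831, and 0.0111 without WT replicate 3). *Myog*, which drives differentiation of myoblasts, was at 7.38, 2.37 and 16.2 FPKM in WT against 22.0, 15.9 and 26.6 in KO (log2 change 1.66, adjusted p = 0.183 and 0.0212). *Actc1*, cardiac actin, was at 23.1, 7.86 and 41.6 FPKM in WT against 72.0, 54.7 and 108 in KO (log2 change 1.93, adjusted p = 0.121 and 0.0193). WT replicate 3 exceeded KO replicate 2 in *Myog*, and in *Myod1* and *Actc1* the groups did not overlap. All KO libraries were above all WT libraries in 18.3% of all genes. *Myod1* reached 1 FPKM in the KO libraries alone, so it had to differ to be tested. *Myl1*, a fast-fibre light chain, and *Mymk*, the myoblast fusion gene, changed in the same way, with adjusted p values of 0.0900 and 0.204 that became 0.0113 and 0.0235. *Acta2*, smooth muscle actin, was at 50.5, 49.4 and 137 FPKM in WT against 225, 153 and 240 in KO (log2 change 1.53, adjusted p = 0.0922 and 0.00383). Of 5 tested cardiac regulators, *Hand2* fell, beside 1.33% of all genes. It went from 2.01 to 2.79 FPKM in WT to 0.413 to 0.743 FPKM in KO (log2 change -1.97, adjusted p = 0.0198). *Hand2* reached 1 FPKM in the WT libraries alone, so it had to differ to be tested. Its call was lost without any library but WT replicate 3.

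**Figure D4:**
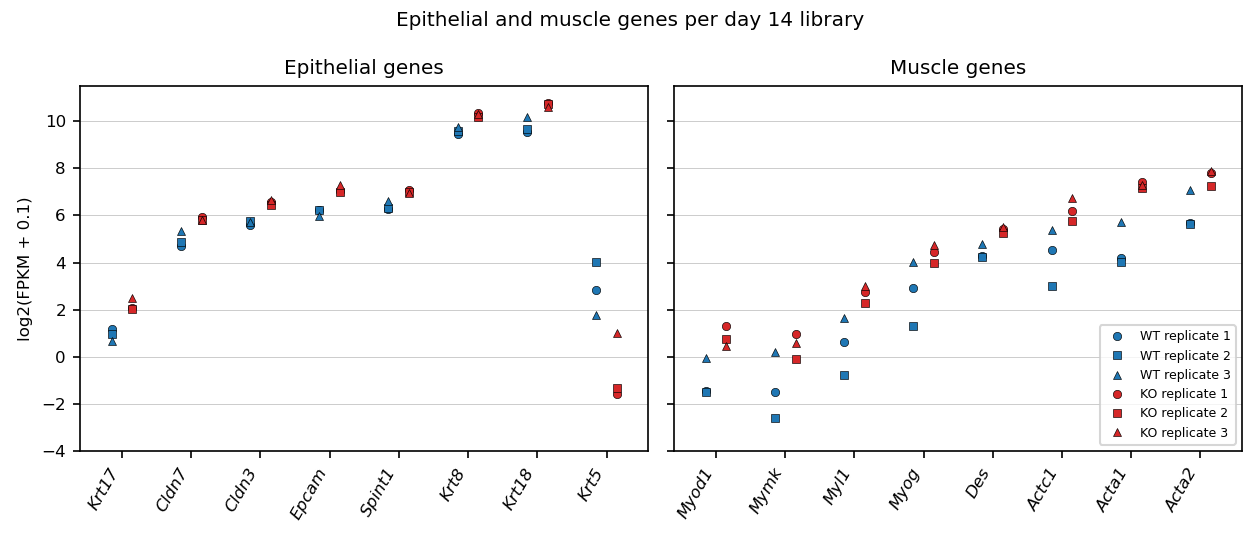
Level of 8 epithelial genes (left) and 8 muscle genes (right) in each day 14 library, as log2(FPKM + 0.1) on the y axis, with WT in blue, KO in red and a symbol for each replicate. In *Acta1* WT replicate 3 lies at 53.2 FPKM, between the other WT libraries at 16.1 and 18.2 FPKM and the KO libraries at 145 to 169 FPKM.

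Markers of visceral endoderm and fetal liver changed in both directions. Of 31 listed genes 11 were tested, 2 fell (1.33% of all genes) and 1 rose (2.61%), 8 had overlapping groups, and the median log2 change was -0.06. Both that fell reached 1 FPKM in the WT libraries alone and so had to differ to be tested. Leaving out WT replicate 3 gave 4 falls and 1 rise. *Apoa1*, the main apolipoprotein of HDL, was at 9.32, 9.05 and 2.79 FPKM in WT against 0.166, 0.248 and 0.391 in KO (log2 change -4.14, adjusted p = 0.0131). *Spink1*, a secreted trypsin inhibitor, was at 11.7, 11.3 and 2.75 FPKM in WT against 0, 0.420 and 0 in KO (log2 change -5.39, adjusted p = 0.0252). Both were lowest in replicate 3 among the WT libraries, as were *Afp* and *Ttr*, defining markers that reached 1 FPKM in only 2 libraries and were not tested. *Afp* was at 9.55, 4.17 and 0.684 FPKM in WT against 0.0305 to 0.0797 in KO, and *Ttr* at 7.27, 3.87 and 0.633 FPKM in WT against 0.0433 to 0.387 in KO. *Slc39a8*, a metal transporter gene, rose by 0.69 on the log2 scale (adjusted p = 0.0176), and kept its call without WT replicate 3 alone. *Apoa1* kept its call without KO replicate 3 or WT replicate 3, and *Spink1* without KO replicate 2 or WT replicate 3. Summed over the 31 genes, the level was 249.6 to 292 FPKM in WT against 208.7 to 247.6 in KO.

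Endothelial markers gave 2 falls and no rise among 12 tested, beside 1.33% lower and 2.61% higher of all genes. Of the 12, 7 had a log2 change below 0 and 5 above, the median was -0.28, and the KO libraries were all lower in 4 and all higher in 2. The fit without WT replicate 3 gave 3 falls and 1 rise. *Cdh5*, the adhesion molecule that defines endothelium, was at 21.3, 33.7 and 7.95 FPKM in WT against 0.636, 0.790 and 1.12 in KO (log2 change -4.28, adjusted p = 0.0125), a call lost without WT replicate 1, KO replicate 1 or KO replicate 2. The other was *Flt1*, described above. *Kdr*, *Tie1*, *Erg* and *Emcn*, which mark the same cells, were below the filter. Summed over the 26 listed genes, the level was 61.3 to 86.2 FPKM in WT against 45.1 to 48.7 in KO. *Cdh5* alone gave 7.95 to 33.7 FPKM of these sums in WT and 0.636 to 1.12 FPKM in KO. In the macrophage list 1 of 9 tested genes rose (2.61% of all genes), the innate immune receptor gene *Tlr2*, from 2.41 to 2.99 FPKM in WT to 4.79 to 5.64 FPKM in KO (log2 change 0.95, adjusted p = 0.0180), a call that held without WT replicate 3 but with no other library left out. The median log2 change of the 9 was 0.74, and all KO libraries were above all WT libraries in 6 (18.3% of all genes). When WT replicate 3 was left out, 5 rose, beside 16.1% of all genes, among them the lysosomal glycoprotein gene *Cd68* (adjusted p = 0.0688 with 6 libraries and 0.00383 without that one). *Ptprc* and *Adgre1*, which define leukocytes and macrophages, were near 0 in all 6 libraries.

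Among neural and neural crest markers, *Stmn2*, a gene of growing axons, rose from 10.7, 7.53 and 5.88 FPKM in WT to 18.0, 17.2 and 19.7 FPKM in KO (log2 change 1.22, adjusted p = 0.0333). *Hesx1*, of the anterior neural plate and pituitary, fell from 6.96, 6.67 and 3.69 FPKM to 2.22, 2.17 and 2.02 FPKM (log2 change -1.34, adjusted p = 0.0387). *Twist1*, a regulator of mesenchyme and crest, fell from 8.69, 14.2 and 5.38 FPKM to 3.06, 2.38 and 2.54 FPKM (log2 change -1.68, adjusted p = 0.0437). These were the members that passed among 9 neural and 6 neural crest genes tested, beside 2.61% of all genes higher and 1.33% lower. In all 3 the groups stood apart. Single members also fell in the lists of cartilage and bone (*Alpl*, the alkaline phosphatase that ESCs also express, log2 change -0.80) and erythroid cells (*Epor*, the erythropoietin receptor, log2 change -1.82). *Epor* reached 1 FPKM in the WT libraries alone, so it had to differ to be tested. *Stmn2* kept its call without WT replicate 1 or 3, and the other 4 without WT replicate 3 alone.

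Matrix genes changed in both directions. *Vcan*, the proteoglycan versican, was at 6.45, 6.97 and 4.74 FPKM in WT against 2.05, 2.37 and 2.03 in KO (log2 change -1.44, adjusted p = 0.0125). *Mmp9*, a gelatinase that giant cells also make, was at 11.6, 20.4 and 8.15 FPKM in WT against 2.76, 3.07 and 2.70 in KO (log2 change -2.09, adjusted p = 0.0228). They were the 2 falls among 31 matrix genes tested, with no rise, beside 1.33% and 2.61% of all genes. With WT replicate 3 left out, 5 fell and 8 rose (8.27% and 16.1% of all genes), among the rises *Sparc*, a collagen-binding glycoprotein gene, with a log2 change of 0.51 with 6 libraries and 0.78 in that fit (adjusted p = 0.00555). Of 16 collagen genes 1 fell and 1 rose. *Col1a1*, of the main fibrillar collagen, was at 76.4, 61.6 and 74.3 FPKM in WT against 38.9, 43.3 and 46.8 in KO (log2 change -0.72, adjusted p = 0.0305). *Col5a2*, whose product nucleates fibrils, was at 18.7, 17.5 and 32.5 FPKM in WT against 48.5, 49.4 and 50.8 in KO (log2 change 1.17, adjusted p = 0.0444). *Col3a1*, which assembles with both, was at 35.3, 49.9 and 15.4 FPKM in WT against 6.75, 5.27 and 9.91 in KO (log2 change -2.07, adjusted p = 0.0548). The groups of these fibrillar collagens did not overlap, although the directions differed. The calls of *Vcan*, *Mmp9* and *Col1a1* held without WT replicate 2 or 3 and that of *Col5a2* without WT replicate 3 alone.

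Few genes of autophagy, lysosomes or the endoplasmic reticulum stress response passed with 6 libraries. Of 39 autophagy genes tested 1 rose, and so did 1 of 36 lysosome genes and 1 of 20 stress genes. None fell, beside 2.61% of all genes higher and 1.33% lower. In the stress list 18 genes had a log2 change above 0 and 2 below, with a median of 0.34. All KO libraries were above all WT libraries in 10 of its 20 genes (18.3% of all genes). *Sqstm1*, the autophagy receptor p62, was at 154, 156 and 200 FPKM in WT against 265, 255 and 255 in KO (log2 change 0.61, adjusted p = 0.0417). *Lgmn*, the lysosomal protease legumain, was at 79.3, 78.4 and 99.7 FPKM in WT against 141, 132 and 132 in KO (log2 change 0.66, adjusted p = 0.0324). *Atf4*, the transcription factor of the integrated stress response, was at 39.5, 42.9 and 50.7 FPKM in WT against 79.1, 77.01 and 75.02 in KO (log2 change 0.80, adjusted p = 0.0182). WT replicate 3 was the highest WT library in all 3 and lay below every KO library, and the calls held only with all 6 libraries or without that one. Without WT replicate 3, 8 autophagy genes rose and 4 fell, 16 lysosome genes rose and 2 fell, and 14 of the 20 stress genes rose and none fell, beside 16.1% of all genes higher and 8.27% lower. *Trib3*, a target of ATF4, was at 3.21, 2.95 and 5.37 FPKM in WT against 7.66, 8.12 and 7.17 in KO (adjusted p = 0.0592, and 0.00304 without that library). *Hspa5*, the chaperone BiP, was at 185, 190 and 223 FPKM in WT against 269, 265 and 260 in KO (adjusted p = 0.0613 and 0.00789). *Ddit3*, which encodes CHOP, had WT replicate 3 at 22.8 FPKM, inside the KO range of 20.7 to 25.6 FPKM (adjusted p = 0.186 and 0.00611).

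In the cell cycle list *Cdkn1c* was the 1 fall among 34 genes tested, beside 1.33% of all genes. *Cdkn1a*, the inhibitor p21, was at 52.4, 46.2 and 89.4 FPKM in WT against 122, 101 and 102 in KO (log2 change 0.84, adjusted p = 0.110, and 0.00413 without WT replicate 3). *Mki67*, the proliferation antigen, was at 16.4, 20.2 and 5.86 FPKM in WT against 5.34, 7.87 and 10.3 in KO (adjusted p = 0.387 and 0.0247), with WT replicate 3 among the KO libraries. For these genes WT replicate 3 was nearer to KO than the other WT libraries were.

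In the signalling lists single members passed. *Fstl3*, an activin antagonist abundant in placenta, fell from 14.9, 21.8 and 11.95 FPKM to 4.90, 5.56 and 3.25 FPKM (log2 change -1.79, adjusted p = 0.0249). *Dhrs3*, a retinal reductase induced by retinoic acid, fell from 8.39, 9.46 and 5.57 FPKM to 3.62, 3.21 and 3.12 FPKM (log2 change -1.18, adjusted p = 0.0324). *Wnt7b*, a Wnt ligand of placenta and epithelia, rose from 19.4, 19.4 and 21.8 FPKM to 29.002, 27.8 and 26.6 FPKM (log2 change 0.46, adjusted p = 0.0446). They were the 1 call each among 25 BMP and TGF-β, 11 retinoic acid and 28 Wnt genes tested. Of all genes, 2.61% were higher and 1.33% lower with 6 libraries. The interferon genes *Rsad2* and *Stat2* fell by 0.85 and 0.75 on the log2 scale among 33 tested, and no Hedgehog, Notch or Hox gene passed with 6 libraries. Without WT replicate 3, 4 of 10 Hedgehog genes fell (8.27% of all genes): *Ptch1*, the receptor, *Boc*, a co-receptor, and the transcription factors *Gli1* and *Gli3*, with log2 changes of -1.73, -1.07, -0.97 and -0.55 in that fit. In the same fit 2 of 8 Notch genes fell, the ligands *Jag1* and *Jag2*, and 1 of 7 Hox genes rose (16.1% of all genes). There 5 of 11 retinoic acid genes fell, among them *Cyp26a1*, which degrades retinoic acid, and its receptor gene *Rarb*. Of 30 pluripotency genes, all above the filter, *Fgf4*, a growth factor of ESCs, rose (24.97, 17.9 and 19.7 FPKM in WT against 31.0, 34.4 and 36.6 in KO, adjusted p = 0.0457). *Pou5f1*, the core factor OCT4, remained at 98.2 to 124 FPKM in WT against 138 to 152 in KO (log2 change 0.45, adjusted p = 0.0781). The calls with 6 libraries named in this paragraph were lost without any library but WT replicate 3.

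Of the genes the study names for these samples, 18 of 21 were tested, 7 fell and 3 rose, which is not independent evidence because the study chose them on these libraries. Of the 18, 3 genes, *Lonrf3* among them, reached 1 FPKM in the WT libraries alone, and 1 did so in the KO libraries alone. Those genes had to differ to be tested. Of the other 14, 5 fell and 3 rose. Outside the groups above, *Jam2*, a junctional adhesion gene, rose from 10.7, 8.01 and 8.16 FPKM to 20.0, 22.2 and 20.8 FPKM (log2 change 1.23, adjusted p = 0.00964). *Lonrf3*, a ring finger gene, fell from 2.85, 2.17 and 2.02 FPKM to 0.458, 0.442 and 0.225 FPKM (log2 change -2.39, adjusted p = 0.0167). *Tubb4a*, *Kif21b* and *Ttyh3*, a tubulin, a kinesin and a chloride channel gene, fell by 1.64, 1.25 and 1.00 on the log2 scale. Each of these 5 genes lost its call with at least 2 of the libraries left out in turn, KO replicates 1 and 2 among them. The chemokine gene *Cxcl10* was at 6.50, 4.06 and 11.0 FPKM in WT against 22.7, 15.8 and 12.3 in KO (adjusted p = 0.112), and the cytokine receptor gene *Il3ra* at 3.50, 3.42 and 6.90 FPKM in WT against 1.45, 1.81 and 1.79 in KO (adjusted p = 0.0553).

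**Figure D5:**
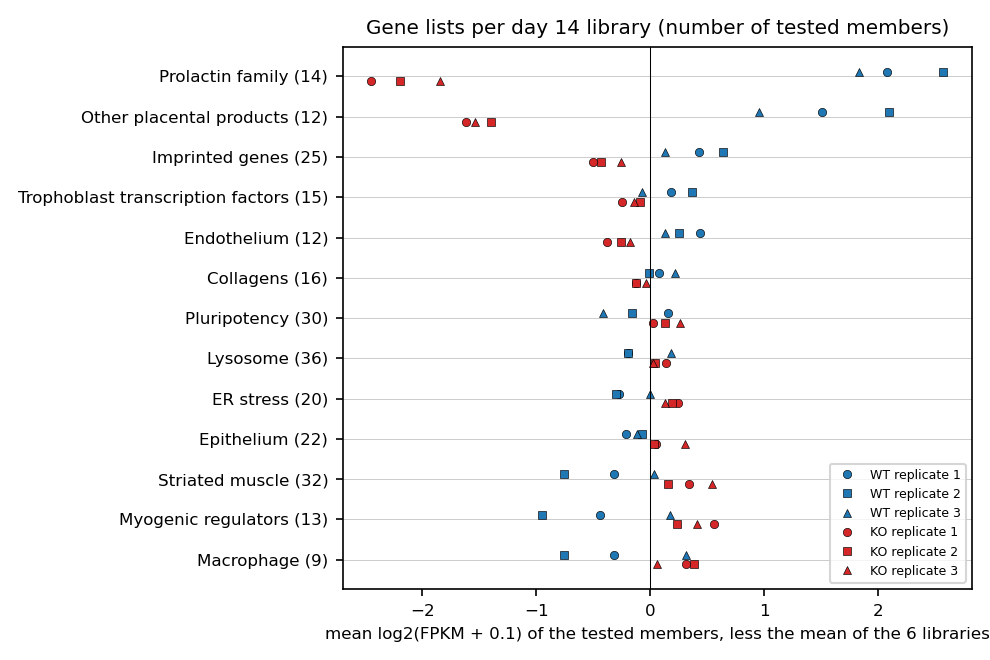
Mean log2(FPKM + 0.1) over the tested members of 13 gene lists in each day 14 library, less the mean of the 6 libraries, with WT in blue, KO in red and a symbol for each replicate, and the number of tested members in brackets. The libraries of WT and KO lie furthest apart for the prolactins, whose median log2 change was -4.21, and for muscle genes WT replicate 3 (blue triangle) lies closest to the KO libraries.

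Over the 40 gene lists, 13 had no member that passed and 21 had 1 or 2. The 6 lists with more were prolactins, other placental products, epithelium, imprinted genes, visceral endoderm with fetal liver, and the genes named by the study. Some large changes were found only without WT replicate 3. *Ptn*, the growth factor pleiotrophin, was at 7.06, 12.4 and 2.30 FPKM in WT against 0.314, 0.223 and 1.16 in KO (log2 change -3.44, adjusted p = 0.0528, and -4.10 and 0.0106 without that library). *Igfbp5*, a binding protein of insulin-like growth factors, was at 36.7, 59.7 and 15.2 FPKM in WT against 4.23, 4.41 and 18.9 in KO (adjusted p = 0.137 and 0.0336), and here KO replicate 3 lay above WT replicate 3. *Usp17lb*, a deubiquitinase gene with near-identical copies and so an uncertain value, was at 1.64, 0.796 and 4.17 FPKM in WT against 10.4, 9.32 and 4.61 in KO (adjusted p = 0.106 and 0.0126).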

How the data were processed

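Poly(A) RNA-seq of 3 WT and 3 KO libraries at day 14 was analysed; the 6 day 0 libraries entered only the comparison between days. The authors aligned the reads to the mm10 genome (HISAT2 2.0.5), assigned them to genes (featureCounts 1.5.0-p3) and deposited FPKM values made from those counts and the gene lengths. Whether strand was used in counting is not given in the sources used here, so antisense and overlapping genes cannot be told apart. Fragment counts were read back from FPKM and gene length, which gave whole numbers within 0.001 in 100% of values. Changes were tested with limma 3.58.1 in R 4.3.3 (lmFit, eBayes with trend) on log2(FPKM + 0.1), a scale that understates the change of low genes. Adjusted p values are Benjamini-Hochberg values over all genes in a fit. Exact tests and tables were made in Python 3.11.15. Motifs were searched in upstream sequences of RefSeq.

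The genes compared and the 40 gene lists (1014 of 1015 symbols matched) were chosen with earlier results of these data known. Genes named are the 15 largest annotated rises and falls among DEGs, from each list its most abundant member and the 4 best by adjusted p, the 8 largest changes in each direction found only without WT replicate 3, the genes the study names, and members of lists described. 1 gene that this rule picks is not reported here. Others are said to be chosen after seeing their values. The fits were checked on simulated data.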

Additional observations from a re-analysis of the deposited data

Results flagged for a closer look

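The KO effect at day 14 was compared with that in undifferentiated cells (day 0) by the interaction term of limma over all 12 libraries, for *Snap29*, *Atrx* and genes from the 6 largest annotated rises and the 6 largest falls. The effects differed in 1692 of 14110 genes (12%) at an adjusted p under 0.05. *Snap29* was lower in KO on both days, by 3.22 on the log2 scale at day 0 and by 2.11 at day 14, and the day 14 change was less negative by 1.106 (adjusted p = 0.00994). *Acta1*, skeletal muscle actin, averaged 3.25 FPKM in the WT libraries of day 0 and 0.952 FPKM in their KO counterparts and was higher in KO at day 14, a difference between the log2 changes of 4.354 (adjusted p = 0.000701). *Tsx* had a log2 change of 0.99 at day 0 and 3.37 at day 14, a difference of 2.374 (adjusted p = 0.0135).

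*Ctsj*, *Prl7d1*, *Tpbpa*, *Prl2b1*, *Prl6a1* and *Ceacam15* had no fragment in any day 0 library, so their differences between days, -7.693, -7.652, -7.033, -7.014, -6.546 and -6.296, equal their day 14 changes and add nothing to them. The same holds for *Lce1f* (3.184) and for *Ighd3-1* (5.308), which rested on 4 fragments in all. *Klk1* was already higher in KO at day 0, at 6.58 FPKM beside 0.717 FPKM, and its effects did not pass the test of a difference (0.42, adjusted p = 0.667), nor did those of *Atrx* (0.03, adjusted p = 0.970).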

How the results depend on the processing

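With 6 libraries 123 DEGs were higher and 113 lower, and 340 genes rose and 174 fell at the adjusted p alone. Without each library in turn these ranged from 11 to 392, 25 to 306, 11 to 2104 and 25 to 1078. At the adjusted p alone, 132 rose and 88 fell with no filter, 159 rose with TPM scaling, 220 with median ratio scaling, 207 with quantile scaling and 214 with voom. A fit of all 4 groups gave 231 and 213 DEGs and 1543 and 878 genes, and library weights gave 433, 378, 4319 and 3058. The cause of these differences was not tested. Rises were 66.1% of the genes that passed, and 38.3% with TPM, 53.9% with median ratio, 55.6% with quantile scaling and 46.3% with voom.

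Same-numbered WT and KO libraries did not deviate together (r = -0.195, -0.0549 and -0.427), so the numbers were not taken as pairs. With the replicate number as a block 1 gene rose and 19 fell, all DEGs. Of 93 named genes that passed, *Snap29* aside, 17 did so under the block, 28 without KO replicate 2, 29 without KO replicate 1, 37 without WT replicate 1, 93 without WT replicate 3, 58 with no filter and 76 with voom. *Snap23* was the named gene whose direction reversed, at -0.0526 with TPM scaling. At this depth a gene near 0.1 FPKM can rest on a few fragments, and fitted changes of such genes depend on the pseudocount.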
